A study of Mus musculus with 8 samples.

Results

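Genes that mark fat cells were followed in the calf muscle gastrocnemius of mice with and without annexin A2. The set holds 10 genes, named by their Ensembl IDs, and 9 of them have a row among the 17352 gene rows of the value table. They are Adipoq (ENSMUSG00000022878_at), Fabp4 (ENSMUSG00000062515_at), Cidec (ENSMUSG00000030278_at), Cfd (ENSMUSG00000061780_at), Lep (ENSMUSG00000059201_at), Pparg (ENSMUSG00000000440_at), Scd1 (ENSMUSG00000037071_at), Retn (ENSMUSG00000012705_at) and Ucp1 (ENSMUSG00000031710_at). Plin1, which encodes the lipid droplet coat protein perilipin 1, was not analysed here. RNA came from 4 Anxa2 knockout mice and 4 wild-type mice, all 24 weeks old and on the C57BL/6 background, with 1 array per animal. The labels number the animals of each genotype as biological replicates 1 to 4 and do not say how the Anxa2 allele was made or which sex the animals had. The study as a whole concerns annexin A2, a calcium-dependent membrane-binding protein, in muscle repair.

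White adipocytes store triglyceride in a large lipid droplet and secrete hormones and other proteins. In muscle they lie between the fibres and fibre bundles, and they arise there from fibro-adipogenic progenitors, so that adipocyte transcripts in a muscle lysate report on fat left with, or formed within, the tissue. Their programme is run by the nuclear receptor PPARG together with C/EBP transcription factors. In whole-muscle RNA, fewer adipocytes and less adipocyte RNA per cell cannot be told apart.

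Values are log2 expression values, so a difference of 1 is a 2-fold change, and they compare a gene across arrays but not genes with each other. Array medians lay between 4.95 and 5.09. The interquartile range was 2.77 on wild type replicate 4 and 2.88 on knockout replicate 2, against 3.06 to 3.16 on the other arrays. The row IDs of the table are not paired with gene names in the sources used here beyond these members, so the muscle identity of the samples was not checked against its markers and the loss of Anxa2 signal was not examined. Wild type replicate 4 and knockout replicate 2 scored highest on the first principal component of all rows. The arrays also split in a way that places 2 of each genotype on either side. Row ENSMUSG00000086503_at read 8.98 to 9.64 on knockout replicates 3 and 4 and wild type replicates 1 and 2, called the first side here, and 3.56 to 4.07 on the second side, the other 4 arrays. Row ENSMUSG00000069045_at ran the opposite way, with 2.59 to 2.71 on the first side and 8.40 to 9.05 on the second. The labels name no factor that matches this split.

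Several of these genes went up and down together from animal to animal, Cfd and Retn most closely with Adipoq, and Lep less. Whether their promoters bear on this was not tested. The 250 bases upstream of the start sites of these 4 secreted products are shown, from the RefSeq promoter table of GRCm38.p6. Of the 10 genes 8 have an entry there, and Fabp4 and Scd1 do not. Capitals mark matches to any of 5 motifs on either strand.
Adipoq, chr16:23146286-23146535, + strand: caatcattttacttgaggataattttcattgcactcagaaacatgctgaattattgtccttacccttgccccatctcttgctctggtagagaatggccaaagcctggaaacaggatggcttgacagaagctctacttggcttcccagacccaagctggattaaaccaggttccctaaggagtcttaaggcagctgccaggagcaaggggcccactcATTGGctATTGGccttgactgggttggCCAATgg
Cfd, chr10:79890603-79890852, + strand: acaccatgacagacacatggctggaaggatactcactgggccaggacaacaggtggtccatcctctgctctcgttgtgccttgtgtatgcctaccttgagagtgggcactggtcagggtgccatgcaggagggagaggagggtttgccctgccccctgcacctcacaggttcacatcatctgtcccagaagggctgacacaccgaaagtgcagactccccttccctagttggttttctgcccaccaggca
Retn, chr8:3655520-3655769, + strand: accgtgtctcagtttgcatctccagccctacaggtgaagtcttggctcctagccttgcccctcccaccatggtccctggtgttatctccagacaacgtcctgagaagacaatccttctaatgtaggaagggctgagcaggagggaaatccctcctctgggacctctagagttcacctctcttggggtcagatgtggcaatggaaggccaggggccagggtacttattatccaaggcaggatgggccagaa
Lep, chr6:29059971-29060220, + strand: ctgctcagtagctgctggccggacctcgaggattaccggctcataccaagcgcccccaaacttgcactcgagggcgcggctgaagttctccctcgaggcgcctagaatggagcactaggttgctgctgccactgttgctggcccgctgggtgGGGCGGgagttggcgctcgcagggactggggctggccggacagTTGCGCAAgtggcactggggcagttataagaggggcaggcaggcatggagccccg
The motifs were the CCAAT box (CCAAT), the TATA box (TATAAA), a C/EBP-like site (TTGCNNAA), a GC box (GGGCGG) and the direct repeat bound by PPARG with its RXR partner (AGGNCA, any base, AGGNCA). The Adipoq stretch held 3 CCAAT boxes, starting 34, 27 and 7 bases before the start site, and 33.8% of 32851 promoter windows held at least 1. The Lep stretch held a C/EBP-like site starting 55 bases and a GC box starting 98 bases before the start, motifs found in 9.56% and 32.7% of windows. The Cfd and Retn stretches held none of these letters. None of the 4 stretches held the PPARG repeat, which 0.338% of windows held, or TATAAA, which 12.4% held.

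Among the secreted products, Adipoq, which encodes the insulin-sensitizing hormone adiponectin, varied most. Its log2 values were 6.83, 6.31, 8.62 and 9.82 in knockout replicates 1 to 4, against 8.20, 7.08, 8.12 and 9.04 in wild type replicates 1 to 4. Knockout replicate 4 was thus the highest of all 8 arrays, and knockout replicates 1 and 2 were the lowest, so the knockout arrays lay on both ends of the wild-type range. From the lowest to the highest array the signal differed 11.4-fold. Its SD over the 8 arrays, 1.19, ranked 15 among the 17352 rows.

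Cfd encodes adipsin, the complement factor D protease that mouse adipocytes secrete. It read 8.14, 8.10, 10.01 and 11.10 in knockout replicates 1 to 4, against 9.83, 9.05, 9.55 and 10.01 in wild type replicates 1 to 4. Retn encodes resistin, a hormone made by adipocytes in the mouse. It read 6.05, 5.89, 7.91 and 8.41 in the knockout arrays, against 7.32, 6.80, 6.91 and 7.65 in the wild-type arrays. In both genes knockout replicates 1 and 2 lay below every wild-type array. Knockout replicates 3 and 4 lay above every wild-type array in Retn, and in Cfd knockout replicate 3 was about level with wild type replicate 4. The signal ranged over 8.03-fold for Cfd and 5.72-fold for Retn.

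Lep encodes leptin, the hormone that reports fat stores to the brain. It read 4.28, 4.30, 4.34 and 6.05 in knockout replicates 1 to 4, against 4.41, 3.64, 4.41 and 5.01 in wild type replicates 1 to 4. Here 3 knockout arrays lay close together inside the wild-type range, and only knockout replicate 4 stood above all others.

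Of the genes of lipid storage and transport, Cidec, which encodes a lipid droplet protein that enlarges droplets by fusion, read 3.86, 4.24, 4.86 and 6.88 in knockout replicates 1 to 4, against 5.14, 4.72, 4.45 and 5.22 in wild type replicates 1 to 4. Its 8.12-fold range came from knockout arrays at both ends. Fabp4, the fatty acid carrier of adipocytes that capillary endothelium and macrophages also make, read 11.50, 11.48, 11.65 and 12.40 in the knockout arrays, against 11.71, 11.69, 11.57 and 11.91 in the wild-type arrays. Its range was 1.88-fold, and knockout replicate 4 was again the highest array.

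Scd1 encodes stearoyl-CoA desaturase, which makes monounsaturated fatty acids in adipocytes and in many other cells. It read 7.87, 7.33, 9.46 and 9.50 in knockout replicates 1 to 4, against 7.66, 7.39, 8.76 and 9.08 in wild type replicates 1 to 4. Its arrays fell into 2 sets, with no value between 7.87 and 8.76. Replicates 3 and 4 of both genotypes made up the high set and replicates 1 and 2 of both the low set.

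Pparg, the regulator of the adipocyte programme, read 5.15, 5.16, 5.28 and 6.38 in knockout replicates 1 to 4, against 5.29, 5.18, 5.56 and 5.79 in wild type replicates 1 to 4. Knockout replicate 4 exceeded every other array, and the range was 2.35-fold. Ucp1, the uncoupling protein of brown and beige adipocytes, read 3.14, 3.05, 2.96 and 2.80 in the knockout arrays, against 2.86, 2.99, 3.47 and 3.24 in the wild-type arrays. All its values lay below 3.63, the 25th percentile of mean level over all rows, and no detection call came with the table. It was lowest in knockout replicate 4, the array in which each of the other 8 genes was highest.

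**Figure D1:**
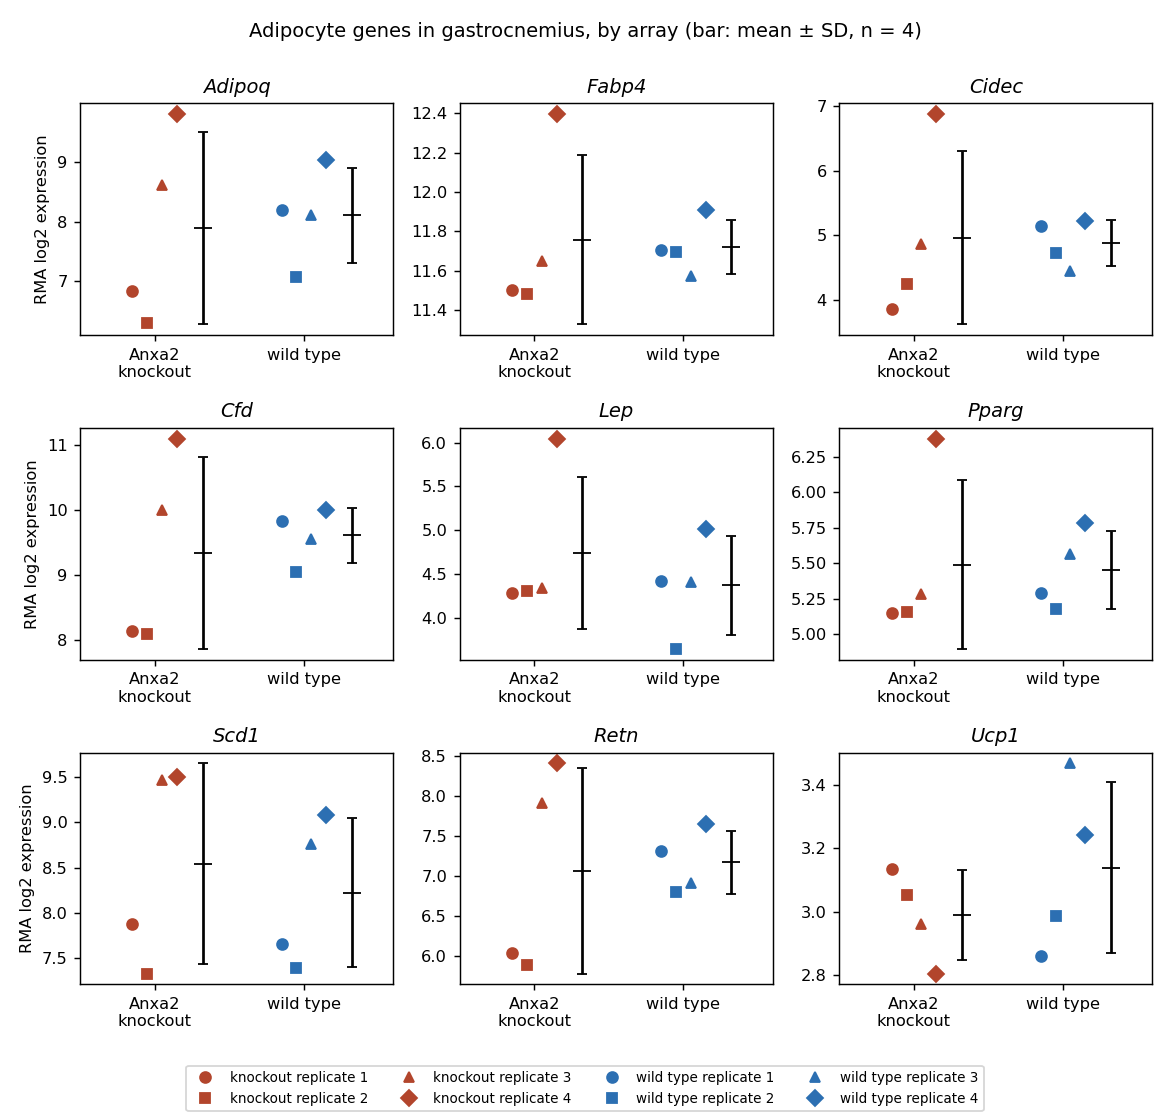
RMA log2 expression (vertical axes, each with its own range) of the 9 adipocyte genes on the 4 knockout and 4 wild-type arrays, with marker shape for the replicate number and the mean ± SD beside the points. Knockout replicate 4 is the highest array in 8 of 9 genes, and in every gene but Lep and Ucp1 the knockout arrays spread beyond both ends of the wild-type arrays.

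None of the adipocyte genes passed the test for genotype. In the limma fit over all rows, 0 of 9 members passed an adjusted p of 0.05, where 0% of all rows passed, and 0 of 9 had an unadjusted p under 0.05, where 1.55% of all rows did. In 0 of 9 did the genotypes separate without overlap, against 1.31% of all rows. The mean was higher in the knockout for 5 members and lower for 4, with a median difference of 0.04, against -0.01 over all rows.

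Adipoq averaged 7.89 ± 1.62 in knockout and 8.11 ± 0.81 in wild-type muscle (SD, n = 4 each), a log2 difference of -0.22 (SE 0.70, 95% interval -1.78 to 1.35, limma adjusted p = 1.00). On the linear scale that interval runs from 0.292 to 2.54 times the wild-type level, so a 2-fold change either way lay within it. Cfd averaged 9.34 ± 1.48 in knockout and 9.61 ± 0.42 in wild-type muscle (SD, n = 4 each), a difference of -0.27 (95% interval -1.60 to 1.05). For Lep the means were 4.74 ± 0.87 in knockout and 4.37 ± 0.56 in wild-type muscle (SD, n = 4 each), and the difference of 0.37 (95% interval -0.53 to 1.28) was the largest in size among the members. The intervals of Fabp4 (-0.39 to 0.47) and Pparg (-0.55 to 0.63) exclude a 2-fold difference of the means over all 8 arrays on the RMA scale. For Pparg this does not hold within the sides of the split, where the intervals were -0.08 to 1.27 and -1.20 to 0.15. Over all 8 arrays the interval of Ucp1 (-0.47 to 0.17) was the narrowest. Its readings lay at the low end of the table without a detection call, so it sets no limit on a change in Ucp1 expression. Two-sided exact permutation tests over the 70 assignments of the arrays gave unadjusted p-values from 0.371 for Ucp1 to 0.971 for Fabp4, Cidec and Pparg, where the smallest possible is 0.029. Leaving out single arrays turned the sign of the difference in 8 of the 9 genes, all but Ucp1. Without knockout replicate 4 the Cidec difference was -0.56 and the Lep difference -0.06, and without knockout replicate 2 the Adipoq difference was 0.31.

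**Figure D2:**
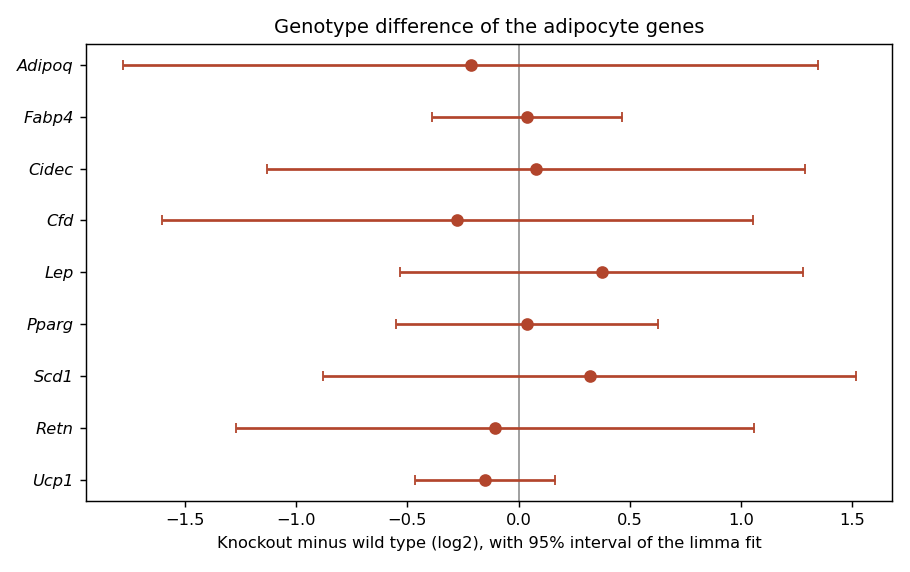
Knockout minus wild-type log2 difference of each adipocyte gene (horizontal axis) with the 95% interval of the limma fit, 4 arrays per genotype. Every interval includes 0, and that of Adipoq, from -1.78 to 1.35, is the widest.

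The animals of the knockout group were further apart in these genes than those of the wild-type group. The SD was larger in the knockout for 8 of 9 members, all but Ucp1, and larger in the knockout for 35.9% of all rows. It was over 1.5 times as large for 7 of 9 members, against 17.4% of all rows. The ratio of the knockout to the wild-type SD was 3.72 for Cidec, 3.55 for Cfd, 3.29 for Retn and 2.01 for Adipoq, with a median of 2.17 over the members and 0.783 over all rows. In 8 of 9 members knockout replicates 3 and 4, on the first side of the split, both lay above knockout replicates 1 and 2, on the second. Of all rows 18.6% had that order. The knockout SD thus holds a difference between these pairs of arrays as well as that within them. With 4 arrays per genotype this difference in spread is a description and was not tested.

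**Figure D3:**
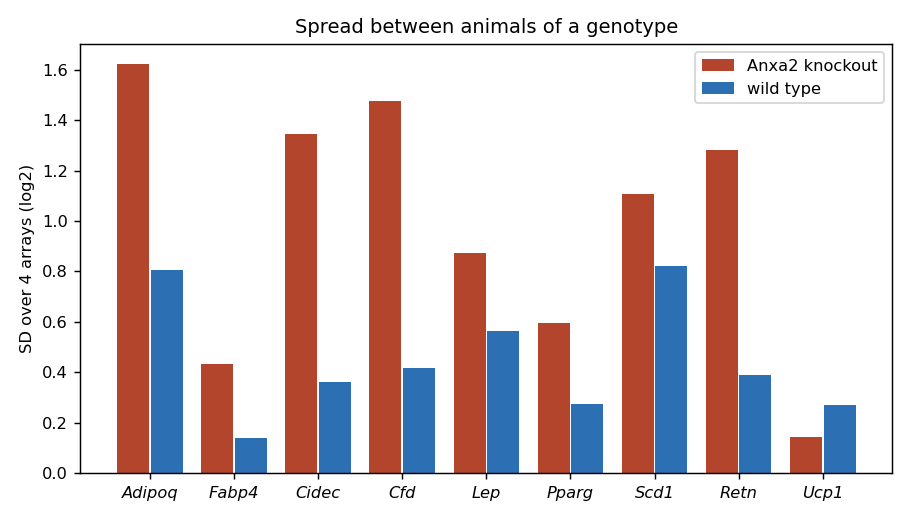
SD over the 4 arrays of a genotype (vertical axis, log2 units) for each adipocyte gene, knockout bars left of wild-type bars. The knockout SD is the larger for every gene but Ucp1.

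A fat score was taken per array as the mean of the 9 genes after each was centred on its own mean over the 8 arrays. It was -0.66, -0.76, 0.26 and 1.18 in knockout replicates 1 to 4, against -0.04, -0.47, 0.01 and 0.47 in wild type replicates 1 to 4. The order from low to high was knockout replicates 2 and 1, wild type replicates 2, 1 and 3, knockout replicate 3, wild type replicate 4 and knockout replicate 4. The means were 0.01 ± 0.91 in the knockout and -0.01 ± 0.38 in wild type (SD, n = 4 each), a difference of 0.01. The score thus spanned 1.94 log2 units among the knockout animals and 0.93 among the wild-type animals, with nearly equal means.

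Most of the other genes followed Adipoq from array to array. Over the 8 arrays, 6 of 7 genes correlated with it at an adjusted p under 0.05 (exact permutation tests over all pairings, two-sided, Benjamini-Hochberg over 7 relations). Scd1 was left out of these because its arrays fell into separate sets. This was decided after its values were seen, and the plan had covered every other member. At an unadjusted exact permutation p under 0.05 with a positive r, the count was also 6 of 7, against 3.46% of all other rows. For Cfd, Pearson's r was 0.971 (exact permutation p = 2.5e-05, the smallest possible, adjusted p = 0.00017), and Spearman's rho was 1.00 (exact permutation p = 5.0e-05), so that both genes put the 8 arrays in the same order. For Retn, r was 0.960 (exact permutation p = 0.00030, adjusted p = 0.0010) and rho 0.976 (exact permutation p = 0.00040). The r of Pparg was 0.843, of Cidec 0.842, of Fabp4 0.822 and of Lep 0.781, with adjusted exact permutation p-values from 0.0056 to 0.015, and their rho ran from 0.833 for Lep to 0.929 for Cidec (unadjusted exact permutation p from 0.0022 to 0.015).

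Ucp1 did not follow Adipoq (r = -0.186, exact permutation p = 0.66, and rho = -0.381, exact permutation p = 0.36). Without knockout replicates 4 and 2, the arrays farthest from the median of Adipoq, r was 0.92 for Cfd and 0.90 for Retn, which still passed, and 0.673 to 0.767 for Fabp4, Cidec, Lep and Pparg, which did not. Over these 6 arrays the r of Lep was 0.763, of Cidec 0.767, of Pparg 0.762 and of Fabp4 0.673, so for these genes the loss of the call came with fewer arrays and a smaller r. Without knockout replicate 4 alone the same 4 no longer passed (r = 0.621 to 0.784), and without wild type replicate 4 Lep did not (r = 0.763). With each value taken relative to its genotype mean, r was 0.972 for Cfd and 0.960 for Retn. That step leaves in place the difference between replicates 3 and 4 and replicates 1 and 2, which Adipoq, Cfd and Retn share. The correlations were not taken without this difference.

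**Figure D4:**
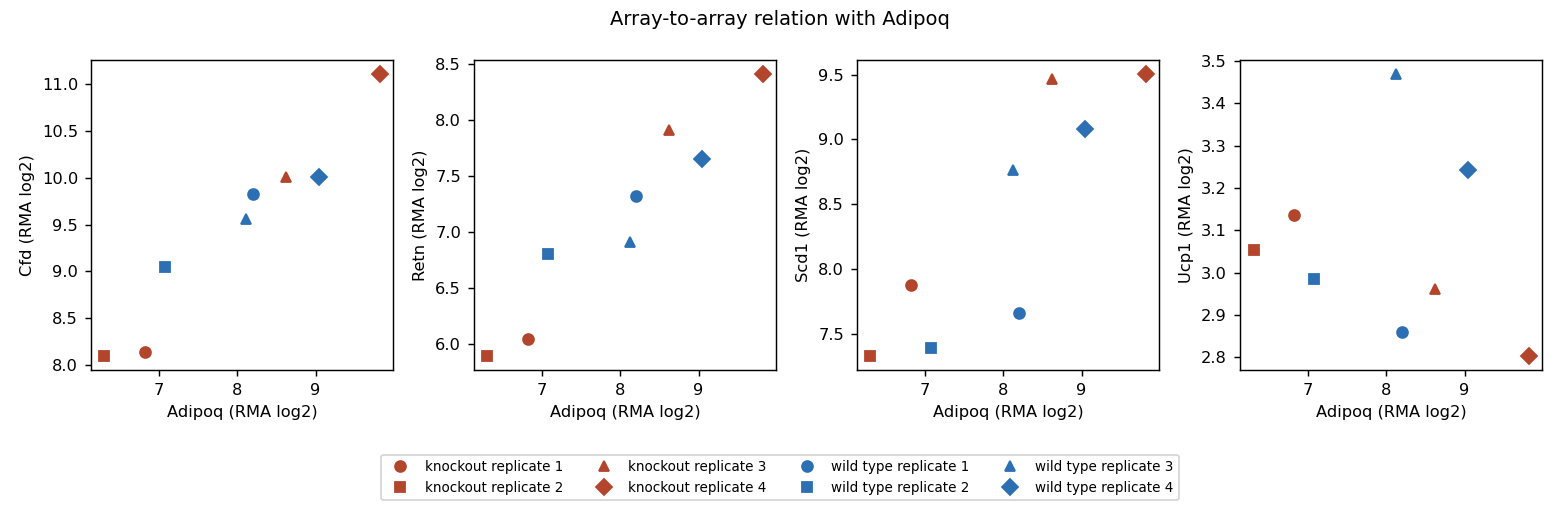
Adipoq (horizontal axes, RMA log2) against Cfd, Retn, Scd1 and Ucp1 (vertical axes, RMA log2), 1 point per array, coloured by genotype. Cfd and Retn climb with Adipoq through arrays of both genotypes, Scd1 falls into a low and a high set, and Ucp1 shows no such climb.

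The likeness was uncommon in the table: 0.242% of all other rows had an r of at least 0.9 with Adipoq, among them 2 of the 7 genes. Among rows with an SD of at least 0.25, the non-member rows most like Adipoq over the 8 arrays were ENSMUSG00000033022_at (r = 0.987) and ENSMUSG00000022860_at (r = 0.975). The most opposed were ENSMUSG00000040669_at (r = -0.886) and ENSMUSG00000004263_at (r = -0.870). These r values are descriptions over 8 arrays and the rows were chosen by them.

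The second principal component of the whole table, with 14.5% of its variance, ordered the arrays much as Adipoq did (r = 0.956, exact permutation p = 0.00040, adjusted p = 0.0017 over 16 relations, and rho = 0.976, exact permutation p = 0.00040). Without the 2 arrays at the ends of that component r was 0.880. The first component, with 45.0% of the variance, on which wild type replicate 4 stands apart, had an r of 0.018 with Adipoq (exact permutation p = 0.97) and a rho of -0.381 (exact permutation p = 0.36). The components were taken from all rows, members included.

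On the 2 sides of the split of the arrays, the genotypes differed in opposite directions in Adipoq, Cfd, Retn and Scd1. The mean differences of Fabp4, Cidec, Lep and Pparg also had opposite signs, but their genotypes overlapped on the first side. Ucp1 was lower in the knockout on both sides (-0.04 and -0.26). On the first side, Adipoq read 8.62 and 9.82 in knockout replicates 3 and 4, against 8.20 and 7.08 in wild type replicates 1 and 2, a difference of 1.58. On the second side it read 6.83 and 6.31 in knockout replicates 1 and 2, against 8.12 and 9.04 in wild type replicates 3 and 4, a difference of -2.01. In 4 of 9 genes, Adipoq, Cfd, Retn and Scd1, both knockout arrays were above both wild-type arrays of the first side and, for the second side, below both, an order found in 4.60% of all rows. The mean score of the knockout minus that of wild type was 0.97 for the first side, while for the second it was -0.95.

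A fit with genotype, side and their interaction, chosen after the values were seen, gave the size of this difference between the sides. For Scd1 the genotype difference was 1.96 for the first side and -1.32 for the second, which differ by 3.28 (SE 0.29). The sides differed by 3.60 (SE 0.68) for Adipoq, by 2.78 (SE 0.51) for Cfd and by 2.41 (SE 0.40) for Retn. The fit restates the order of the arrays already given, so its p-values are no independent evidence and are left out, and the difference between the sides is a description.

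The first side holds knockout replicates 3 and 4 with wild type replicates 1 and 2, so the difference between the sides is by arithmetic the same contrast as replicates 3 and 4 against replicates 1 and 2 over both genotypes. The 2 readings cannot be told apart here. Scd1 averaged 9.20 over replicates 3 and 4 and 7.56 over replicates 1 and 2, and it was the only member whose 4 higher-numbered arrays all lay above the 4 lower-numbered ones, as 2.41% of all rows did. Adipoq averaged 8.90 over replicates 3 and 4 and 7.10 over replicates 1 and 2. The labels give no meaning to the replicate numbers.

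**Figure D5:**
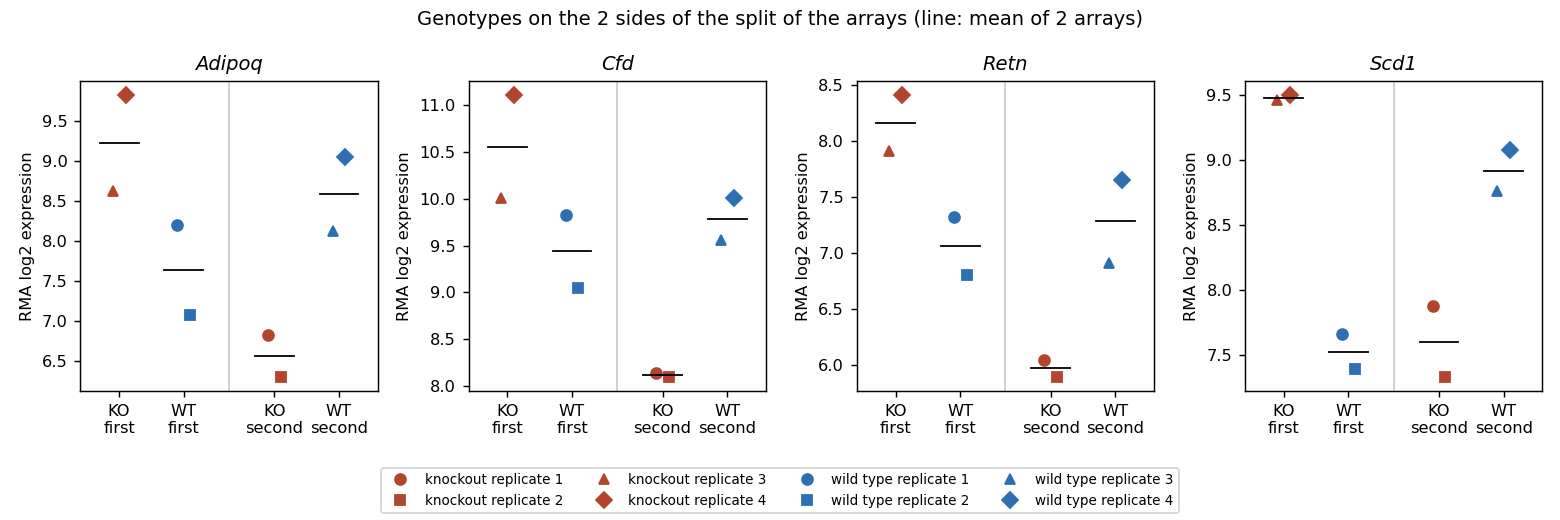
RMA log2 expression (vertical axes) of Adipoq, Cfd, Retn and Scd1 on the first and second side of the split, knockout (KO) left of wild type (WT), with a line at the mean of 2 arrays. On the first side both knockout arrays lie above both wild-type arrays, and on the second side below them.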

How the data were processed

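Total RNA of frozen left gastrocnemius was labelled with biotin by a 3'-primed Affymetrix kit, per the labels' protocols. The authors deposited log2 expression values made with RMA in R 3.1.2, per the submitters' processing notes. RMA corrects background, equalizes the arrays' intensity distributions and summarizes probes. The interquartile ranges of the summarized values still differed, from 2.77 to 3.16. Which probe-set definition and build they used is not given in the sources used here. No detection calls or counts were used, and array number together with the spread between arrays limits how precise the values are. Members were matched by Ensembl ID. The members, lists and tests were chosen with earlier results of these data known. The name table used here (49997 genes) pairs 0 Ensembl IDs with symbols, so the lists of related adipocyte genes and cell type markers were not analysed, and of non-member rows the 2 most alike and the 2 most opposed to Adipoq are named by ID.

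Limma 3.58.1 (R 4.3.3) fitted genotype alone to all 17352 rows and 8 arrays with default empirical Bayes moderation. Two-sided p-values were adjusted by Benjamini-Hochberg across the whole table, with a threshold of 0.05 and no low-value filter. Correlations and exact permutation tests were computed in Python 3.11.15, and figures drawn with matplotlib 3.10.9. The fits were tested on simulated data. The labels do not say that the replicate numbers pair animals. Nothing beyond the words biological replicate tells how the animals were housed or processed. The p-values of the main fit set a genotype difference against the spread between these samples, which includes that between the sides of the split. Alternatives were the replicate block, low-level filters, moderation, array weights, scaling, a block for the split of the arrays, and leaving out arrays. Promoter stretches were read from RefSeq (GRCm38.p6) and searched on both strands.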

Additional observations from a re-analysis of the deposited data

Results flagged for a closer look

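For each of the 9 genes and the score, the 4 arrays of each genotype were examined for a single array lying apart, where chance gives about 1 in 20. Of 20 checks 2 found one, both on knockout replicate 4, and the checks are not independent. Lep read 6.05 there, against 4.28 to 4.34 in the other knockout arrays. Pparg read 6.38 there, against 5.15 to 5.28. The genotype difference of these genes without that array was -0.06 for Lep and -0.26 for Pparg.

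In 4 genes both knockout arrays exceeded both wild-type arrays of the first side of the split, while those of the second side fell short of both. The difference between the sides was 3.60 for Adipoq, 2.78 for Cfd, 3.28 for Scd1 and 2.41 for Retn. This was not tested independently of the order that drew attention to it. With 2 arrays per genotype and side, and with the contrast shared by the replicate numbers, these values rest on few animals, and the split and the numbering cannot be told apart.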

How the results depend on the processing

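The number of members called between the genotypes was 0 in every alternative run, and limma adjusted p-values of the 9 genes stayed between 0.94 and 1.00. Over all rows 0 were called in the main comparison and 1, no member, with the replicate block, array weights, median centring, quantile normalization and cyclic loess. The replicate block left the differences as they were and changed no member's call. Deviations of same-numbered arrays from their genotype means correlated at -0.07, -0.25, 0.18 and -0.24 across rows. Same-numbered knockout and wild-type arrays always lie on opposite sides of the split. These values therefore cannot decide whether the numbers pair the animals. Signs of the genotype differences turned in 23 of 158 gene-by-setting estimates from 18 alternative fits. Adipoq was 0.048 with array weights. Without wild type replicate 4 and knockout replicate 2 Adipoq was 0.63, Cfd 0.27 and Retn 0.44. Cidec was -0.0063 with array weights and Pparg -0.0066 with quantile normalization. With single arrays left out the differences ran from -0.86 to 0.31 for Adipoq, -0.17 to 0.13 for Fabp4, -0.56 to 0.44 for Cidec, -0.86 to 0.14 for Cfd, -0.062 to 0.59 for Lep, -0.26 to 0.15 for Pparg, -0.00023 to 0.72 for Scd1 and -0.55 to 0.28 for Retn. The score difference ran from -0.38 to 0.27, and was 0.97 and -0.95 on the first and second side. Of the 7 correlations with Adipoq, 6 passed, 2 without the 2 arrays farthest from its median, and 2 to 6 with single arrays left out. The r of Ucp1 was 0.128 without those 2 arrays and ran from -0.345 to 0.165 with single arrays left out. With single arrays left out, the difference between the sides ran from 3.00 to 4.19 for Adipoq, 2.23 to 3.33 for Cfd, 3.00 to 3.55 for Scd1 and 2.04 to 2.78 for Retn. Fits with 1 array in a cell assume that it varies like the others. The filters left out Ucp1, and the stricter one also Cidec and Lep. Related gene lists could not be matched and their alternatives were not run.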
